A study of Mus musculus with 6 samples.

Results

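The genes examined here build the machinery that shows intracellular peptides on MHC class I molecules, together with the immunoproteasome that cuts many of those peptides. There are 10 of them among 19938 genes measured: B2m, H2-K1, H2-D1, Tap1, Tap2, Tapbp, Psmb8, Psmb9, Psmb10 and Nlrc5. They were taken by name, and each is represented by the probe set that carries its symbol alone and has the highest mean over the 6 arrays. Of the 10, 8 have such a probe set. H2-K1 and H2-D1 occur only in a pair of probe sets that list both symbols, so they could not be read apart. They are described through those shared sets, outside the counts of genes. The cells were cultured marrow stromal cells, an adherent population that includes adipocyte and osteoblast precursors, from C57BL/6 mice aged 6 months. The 3 KO cultures came from miR-188 knockout mice, labelled 188KO, and the 3 WT cultures from wild-type mice, and the labels number them as biological replicates. All 6 were kept in one adipogenic medium. It held 1 µM dexamethasone, a glucocorticoid, insulin at 5 µg/ml, the phosphodiesterase inhibitor isobutyl-methylxanthine at 0.5 mM, and 10% fetal calf serum. Each gave 1 Affymetrix array. The labels used here state neither the extent of the deletion, nor the days in medium, nor how many mice a culture pooled, and a p-value here covers only culture-to-culture spread.

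The gene labelled as removed, Mir188, encodes a microRNA, a short RNA that pairs with messenger RNAs mainly through its seed at bases 2 to 8. Its mature products from RefSeq (GRCm38.p6) are shown because the genotype labels name this microRNA, with the seed in capitals.
mmu-miR-188-5p: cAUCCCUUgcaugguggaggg
mmu-miR-188-3p: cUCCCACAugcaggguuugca
The Mir188 probe set read 7.19 ± 0.05 in KO and 7.29 ± 0.08 in WT (SD, n = 3 each; adjusted p = 0.348, limma). The labels do not say whether that set lies in the deleted part, so it does not check them, and KO means labelled KO throughout.

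In the class I pathway the proteasome cuts cytosolic proteins, and the TAP1 and TAP2 transporter carries the peptides into the endoplasmic reticulum. There tapasin, encoded by Tapbp, holds empty class I molecules at the transporter, and a peptide is loaded onto a heavy chain such as H2-K1 or H2-D1 paired with beta-2 microglobulin, encoded by B2m. Interferon induces the catalytic subunits encoded by Psmb8, Psmb9 and Psmb10, which replace those encoded by Psmb5, Psmb6 and Psmb7 in newly built proteasomes. NLRC5 is a transactivator of class I genes. Most nucleated cells, stromal cells included, carry class I molecules.

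Values are log2 expression as the authors deposited them, and differences are KO minus WT on that scale. A gene was called at a limma adjusted p under 0.05 over all 19938 genes. Of these, 666 (3.34%) were called higher and 791 (3.97%) lower in KO, and the median difference of all genes was 0.0046. Those shares stand beside the called counts of every gene list below. After quantile normalization again the split was 862 higher and 639 lower. Levels of different probe sets are not compared, since probes bind unequally. A level of 6.83, the 95th percentile of 1027 olfactory receptor genes, served as background, and all 8 genes lay above it. Class I genes are high in blood cells, so their markers were read beside them. Of 14 macrophage and monocyte markers, 4 lay above background and 1 was called: Cd68, a lysosomal protein gene that stromal cells can also express, fell by 0.19 (adjusted p = 0.0153, up to 0.0715 without WT replicate 3, and lost too without KO replicate 3 or WT replicate 1). Ptprc, the pan-leukocyte CD45 gene, read 6.07 ± 0.10 in KO and 6.13 ± 0.06 in WT (SD, n = 3 each), below background. The 14 log2 levels summed to 93.9 to 94.7 in KO arrays and 93.0 to 94.6 in WT arrays. Among markers of dendritic cells (8 genes, the highest Ccr7), B cells (7, Ighm) and T and NK cells (9, Cd8a), none was called and 3, 3 and 2 lay above background. Their summed levels were 52.4 to 53.2, 44.2 to 44.6 and 53.4 to 54.7 in KO arrays, and 51.7 to 52.9, 43.8 to 44.8 and 53.1 to 54.8 in WT arrays. Of 7 endothelial markers, 4 of them above background and Egfl7 the highest, only Kdr, the VEGF receptor 2 gene, fell (-0.29, adjusted p = 0.0425, held only without WT replicate 2 when an array was left out, up to 0.177 otherwise), and the sums were 46.7 to 47.1 in KO arrays and 47.2 to 47.6 in WT arrays. Stromal markers were present, with 11 of 13 above background and Col1a1 at 12.15 ± 0.07 in KO and 12.43 ± 0.00 in WT (SD, n = 3 each). Of these 13, Dcn, Pdgfra and Pdgfrb rose and Col1a1, Col1a2, Col3a1 and Nt5e fell.

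The class I genes did not move as one block. Psmb8 and Tap1 rose, Tapbp fell, and Tap2, Psmb9, B2m, Psmb10 and Nlrc5 did not pass the test. That is 2 of 8 called higher, beside 3.34% of all genes, and 1 of 8 called lower, beside 3.97% of all genes. In 4 of the 8, Psmb8, Psmb9, Tap1 and Tap2, every KO array lay above every WT array, beside 11.4% of all genes. In 1 of 8, Tapbp, every KO array lay below every WT array, beside 13.5% of all genes. The median difference over the 8 genes was 0.09. The changes were small, with folds of 1.02 to 1.31. In bulk cultures, fewer cells of a type and less RNA per cell cannot be told apart.

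**Figure D1:**
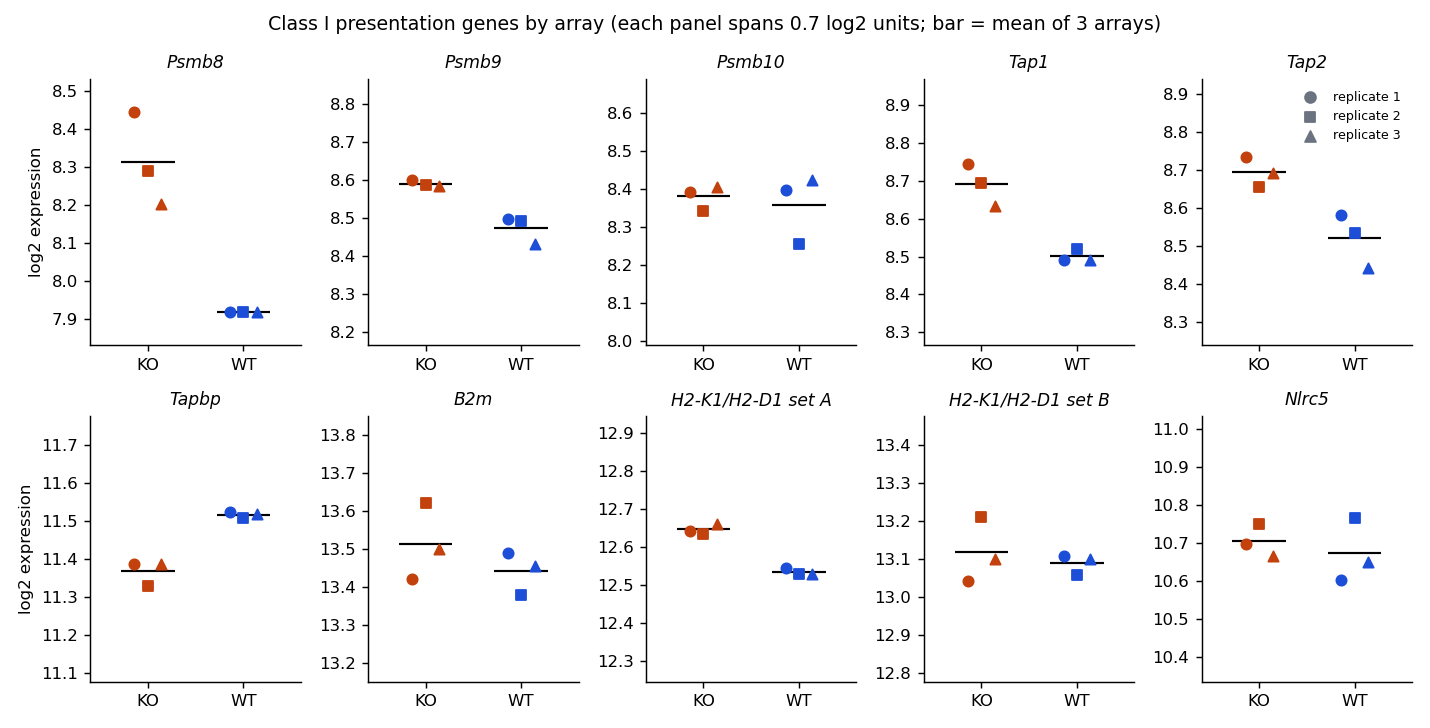
Log2 expression (vertical axis) of the class I presentation genes on each array, KO left and WT right in every panel, with marker shapes for replicate numbers and a bar at the mean of 3 arrays; all panels span the same log2 distance. The 3 KO points of Psmb8, Psmb9, Tap1, Tap2 and of H2-K1/H2-D1 set A lie above the 3 WT points, those of Tapbp lie below, and the groups overlap in the other panels.

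The 3 inducible proteasome subunits differed in size. Psmb8 encodes the subunit also called LMP7, which takes the chymotrypsin-like position. Its values were 8.45, 8.29 and 8.20 in KO replicates 1, 2 and 3, against 7.92 in each of the 3 WT replicates. KO replicate 1 was highest, and the groups did not overlap. The difference was 0.39 (95% interval 0.25 to 0.54, adjusted p = 0.0148, limma), or 1.31-fold, at percentile 99.4 of the differences of all genes. The 3 WT values are exactly equal, as the authors' probe set summary can give, so their SD of 0.00 is no measure of precision. The difference ranged from 0.33 to 0.45 when 1 array was left out, and the call held without KO replicate 1 or KO replicate 3 (adjusted p = 0.0261 and 0.0304). It was lost without KO replicate 2, WT replicate 1, WT replicate 2 or WT replicate 3 (adjusted p = 0.0565, 0.0725, 0.0526 and 0.0852).

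Psmb9, the LMP2 subunit gene, read 8.60, 8.59 and 8.58 in KO replicates 1, 2 and 3, and 8.50, 8.49 and 8.43 in WT replicates 1, 2 and 3. The groups did not overlap and the KO values lay close together. The difference of 0.12 (95% interval 0.04 to 0.19) did not pass (adjusted p = 0.0956, limma, against 0.0166 to 0.295 over all alternatives). Psmb10, the MECL-1 subunit gene and the only one of the 3 outside the MHC region, read 8.39, 8.34 and 8.41 in KO, and 8.40, 8.25 and 8.42 in WT. These groups overlapped, with a difference of 0.02 (95% interval -0.10 to 0.15, adjusted p = 0.863).

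The constitutive partners all lay lower in KO without passing the test. Psmb5 averaged 11.78 ± 0.06 in KO and 11.90 ± 0.05 in WT (SD, n = 3 each), a difference of -0.12 (adjusted p = 0.201, limma). Psmb6 differed by -0.15 (adjusted p = 0.142) and Psmb7 by -0.09 (adjusted p = 0.355). The size of these differences depended on the scaling: after quantile normalization again they were -0.07 for Psmb5, -0.12 for Psmb6 and -0.06 for Psmb7. Each inducible subunit was then set against the partner it replaces within each array, where only the KO minus WT part of the value can be read. The log2 difference of Psmb8 minus Psmb5 ran from -3.61 to -3.36 in KO arrays and from -4.03 to -3.93 in WT arrays, higher by 0.51 in KO. Psmb9 minus Psmb6 ran from -1.80 to -1.63 in KO and from -2.02 to -1.90 in WT, higher by 0.27. Psmb10 minus Psmb7 ran from -2.09 to -2.03 in KO and from -2.20 to -2.13 in WT, higher by 0.11. In this pair Psmb10 itself differed by only 0.02, and Psmb7 by -0.09. All 3 pairs separated the genotypes without overlap, but Psmb10 minus Psmb7 overlapped after cyclic loess (difference of 0.07, exact permutation p = 0.2). The exact two-sided permutation test gave p = 0.10 for each pair, also after Benjamini-Hochberg adjustment over the 3, which is the smallest p that 3 against 3 arrays allow. The constitutive 20S core list, Psmb5, Psmb6 and Psmb7 included, had 1 call in each direction, beside 3.34% of all genes called higher and 3.97% lower. Its differences were negative in 11 of the 14 genes and positive in 3. Of 14 constitutive core genes, Psma6, an alpha ring subunit, rose by 0.15 (adjusted p = 0.0435) and Psmb1, a non-catalytic beta subunit, fell by 0.23 (adjusted p = 0.0267), while 12 did not pass and the median was -0.08. The call of Psma6 was lost in each fit without 1 array (adjusted p = 0.0522 to 0.174), and that of Psmb1 held only without KO replicate 2 or WT replicate 2 (up to 0.126 in the others). Of 11 activator and assembly genes, only Psme4, the PA200 activator gene, passed, with a fall of 0.21 (adjusted p = 0.0337), beside 3.97% of all genes called lower. Among the fits that leave out an array, its call held only without WT replicate 2 (adjusted p up to 0.148 in the others). Psme1 and Psme2, which encode the interferon-inducible PA28 activator, differed by -0.04 (adjusted p = 0.672) and by -0.0002 (adjusted p = 1.00).

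**Figure D2:**
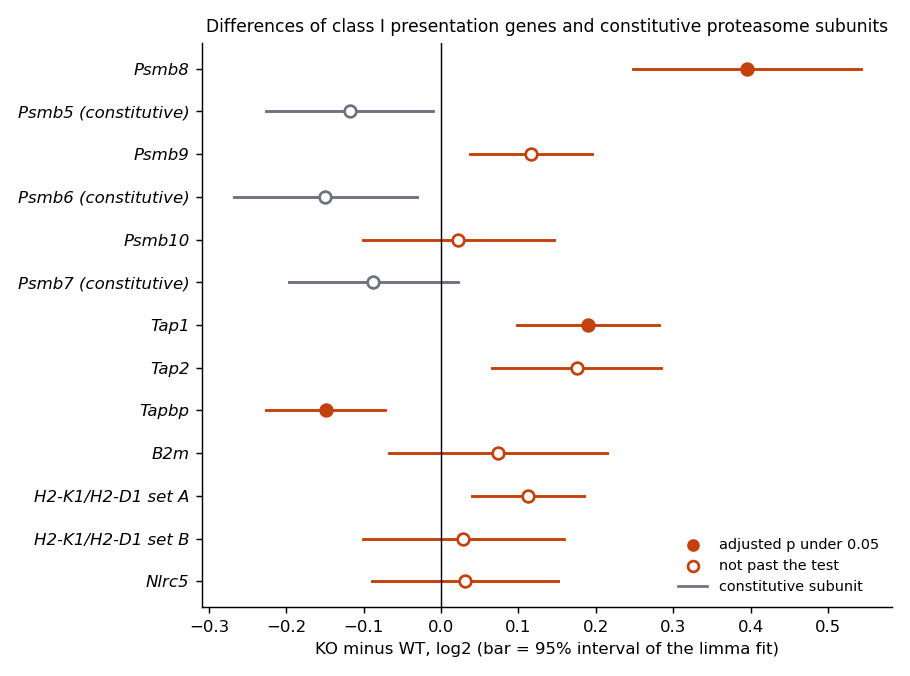
KO minus WT in log2 units (horizontal axis) with the 95% interval of the limma fit for class I presentation genes (orange) and constitutive catalytic proteasome subunits (grey), filled where the adjusted p was under 0.05. Psmb8 (0.39), Tap1 (0.19) and Tapbp (-0.15) are filled, and the 3 constitutive subunits lie left of 0. H2-K1/H2-D1 sets A and B come from the fit over all probe sets, the others from the fit over genes. Their fills are therefore not comparable: over all probe sets Tap1 and Tapbp did not pass either (adjusted p = 0.0825 and 0.0901, limma).

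Both subunits of the peptide transporter lay higher in KO. Tap1 had values of 8.74, 8.69 and 8.63 in KO replicates 1, 2 and 3, against 8.49, 8.52 and 8.49 in WT replicates 1, 2 and 3. The groups did not overlap, and the KO values spread more than the WT values. The rise was 0.19 (95% interval 0.10 to 0.28, adjusted p = 0.0344, limma). Among the fits without 1 array it passed only without KO replicate 3 (adjusted p = 0.0474), and adjusted p was 0.0736 to 0.147 in the other 5. Tap2 had values of 8.74, 8.66 and 8.69 in KO, against 8.58, 8.53 and 8.44 in WT. Its groups did not overlap either, with a difference of 0.18 (95% interval 0.07 to 0.28) that did not pass (adjusted p = 0.0735, against 0.0117 to 0.22 over all alternatives). In the RefSeq table of GRCm38.p6, Psmb9, Tap1, Psmb8 and Tap2 are consecutive protein-coding genes in this order within the MHC on chromosome 17. The arrays show the 4 neighbours with KO above WT on all arrays, and differences of 0.12, 0.19, 0.39 and 0.18 in that order. KO replicate 1 was the highest array for each of these 4. The other members had different highest arrays: KO replicate 2 for B2m, WT replicate 1 for Tapbp, WT replicate 2 for Nlrc5 and WT replicate 3 for Psmb10.

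Promoter windows were read from RefSeq (GRCm38.p6) for 8 of the 10 genes, H2-K1 with 2 windows, each from 250 bases before to 50 after the start. Tap2 and Nlrc5 were not matched in that table. The windows below belong to the called genes, to B2m and to H2-K1. They are shown so that the neighbours that lay higher can be set beside class I genes that did not pass. Capitals mark matches on either strand to any of 5 motifs: the interferon-stimulated response element (ISRE, GAAA then any 2 bases then GAAA), the STAT-binding GAS element (TTCNNNGAA), the Y box bound by NF-Y (CCAAT), the core of the cyclic AMP response element (CRE core, TGACG) and the kappaB element by name.
Psmb8, chr17:34197945-34198244, plus strand: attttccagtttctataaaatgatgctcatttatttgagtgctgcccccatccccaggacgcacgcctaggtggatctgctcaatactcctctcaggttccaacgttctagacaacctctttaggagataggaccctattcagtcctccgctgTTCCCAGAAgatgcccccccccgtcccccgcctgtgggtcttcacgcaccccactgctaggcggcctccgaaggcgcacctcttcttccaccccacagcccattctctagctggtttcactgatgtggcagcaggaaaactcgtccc
Tap1, chr17:34187306-34187605, plus strand: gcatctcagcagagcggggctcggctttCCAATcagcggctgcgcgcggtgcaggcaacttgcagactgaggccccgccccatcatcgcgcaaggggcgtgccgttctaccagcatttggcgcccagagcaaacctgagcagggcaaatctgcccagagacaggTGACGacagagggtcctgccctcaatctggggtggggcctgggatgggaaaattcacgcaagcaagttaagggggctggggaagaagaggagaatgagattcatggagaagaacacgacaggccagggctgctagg
Tapbp, chr17:33919228-33919527, plus strand: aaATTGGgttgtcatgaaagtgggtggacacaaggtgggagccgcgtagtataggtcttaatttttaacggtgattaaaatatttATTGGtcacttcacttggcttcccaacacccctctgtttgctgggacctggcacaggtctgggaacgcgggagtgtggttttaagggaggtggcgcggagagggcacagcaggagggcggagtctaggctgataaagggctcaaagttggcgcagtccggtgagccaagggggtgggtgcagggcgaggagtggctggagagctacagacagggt
B2m, chr2:122147437-122147736, plus strand: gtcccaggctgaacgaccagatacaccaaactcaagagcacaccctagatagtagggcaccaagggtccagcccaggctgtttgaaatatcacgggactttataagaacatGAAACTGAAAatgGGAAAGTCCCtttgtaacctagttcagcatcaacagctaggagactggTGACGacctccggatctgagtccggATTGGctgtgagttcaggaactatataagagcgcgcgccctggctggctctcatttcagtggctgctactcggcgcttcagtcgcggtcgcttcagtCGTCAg
H2-K1, chr17:34000298-34000597, minus strand: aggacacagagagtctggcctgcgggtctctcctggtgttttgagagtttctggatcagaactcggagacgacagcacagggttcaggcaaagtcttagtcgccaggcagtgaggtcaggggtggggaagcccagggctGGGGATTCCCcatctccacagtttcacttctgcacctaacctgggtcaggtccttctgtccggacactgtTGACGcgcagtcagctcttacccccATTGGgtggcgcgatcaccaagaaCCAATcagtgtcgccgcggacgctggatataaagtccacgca
Tap1 and Psmb9 point away from each other, and their windows share 275 bases with the same letters. That stretch holds 1 Y box and 1 CRE core match, the CRE core with its first base at -86 from the Tap1 start and -144 from the Psmb9 start. The Psmb8 window holds 1 GAS match, at -97 from the start, and no ISRE, kappaB, Y box or CRE core match. Among the members with a window, only B2m held a match to the ISRE form given above, at -139 from the start. Interferon elements that depart from that form were not searched, so a window without a match may still hold one. The H2-K1 and H2-D1 windows each held a kappaB match, 1 CRE core match and Y box matches. Over the 9 member windows, 1 held ISRE, 1 GAS, 7 the Y box and 6 the CRE core, while 3.44%, 8.30%, 37.4% and 20.8% of all 32851 windows of that length did. The kappaB search took a general form and also the known kappaB site of H2 class I genes itself, which gave the matches in H2-K1 and H2-D1, so the 4 windows with a match are not read against the 1.74% of all windows. The other motifs were also chosen with this pathway in mind, so their counts are not read as an excess over all windows. The 2 H2-K1 windows overlap each other, and the Y box and CRE core match shared by Tap1 and Psmb9 count for both of those windows. These counts are therefore not independent. A match describes letters and shows no binding.

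Tapbp moved against Psmb8 and Tap1, the other called members. It read 11.39, 11.33 and 11.39 in KO replicates 1, 2 and 3, against 11.52, 11.51 and 11.52 in WT replicates 1, 2 and 3, with no overlap. The fall was 0.15 (adjusted p = 0.0414, limma), or 1.11-fold. It did not pass in any of the 6 fits without 1 array (adjusted p = 0.0718 to 0.159), and the difference was -0.10 after quantile normalization again and -0.11 after cyclic loess (adjusted p = 0.142 and 0.109). Another pair of probe sets lists Tapbp with Rps3a1, a ribosomal protein gene, and gave -0.08 and -0.10 (adjusted p = 0.476 and 0.479, over all probe sets). The peptide loading and trimming list had 14 measured genes with a median of -0.09, of which 2 fell, 12 did not pass and none rose. Erap1, the aminopeptidase that trims peptides in the endoplasmic reticulum to the length class I molecules bind, fell by 0.57 (SE 0.06, adjusted p = 0.00494). Its values were 6.90, 7.05 and 7.04 in KO, against 7.65, 7.51 and 7.52 in WT. This difference is larger in size than that of any of the 8 members, and the call held in all 6 fits without 1 array (adjusted p = 0.0212 to 0.0408). Uggt1, which checks glycoprotein folding and takes part in peptide editing, fell by 0.22 (adjusted p = 0.0175), and its call was lost without KO replicate 3, WT replicate 1 or WT replicate 3 (adjusted p = 0.0559, 0.0702 and 0.0905). The tapasin-related gene Tapbpl differed by -0.07 (adjusted p = 0.589).

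For the class I molecule itself, the transcripts of B2m and the shared H2-K1 and H2-D1 probe sets did not pass the test. B2m had values of 13.42, 13.62 and 13.50 in KO replicates 1, 2 and 3, and 13.49, 13.38 and 13.46 in WT replicates 1, 2 and 3. KO replicate 2 was highest, KO replicate 1 lay below WT replicate 1, and the difference of 0.07 (95% interval -0.07 to 0.21) did not pass (adjusted p = 0.565, limma). The shared set that lists H2-K1 first, set A (probe set 10450075), read 12.64, 12.63 and 12.66 in KO, against 12.54, 12.53 and 12.53 in WT. All KO arrays lay above all WT arrays in set A, beside 9.03% of all probe sets. In the fit over all 35556 probe sets, where 1.11% were called higher and 1.34% lower, the difference was 0.11 (adjusted p = 0.132). Set A was called in 2 of 11 alternatives (adjusted p = 0.0197 to 0.439, limma), and in none of the fits without 1 array. The set that lists H2-D1 first, set B (probe set 10444780), read 13.04, 13.21 and 13.10 in KO, and 13.11, 13.06 and 13.10 in WT. These values overlapped (difference 0.03, adjusted p = 0.847). Both sets also list LOC547349, a class I-like gene model, and signal from near-identical heavy chains cannot be assigned to one gene.

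Other heavy chains were higher in KO in part. Of 15 with a probe set of their own, 2 rose, none fell and 13 did not pass, with a median of 0.04. H2-Q4, of the Qa class Ib region, rose by 0.27 (SE 0.05, adjusted p = 0.0180), with 10.24, 10.22 and 10.23 in KO, against 10.02, 9.87 and 9.98 in WT. H2-Q2 rose by 0.19 (adjusted p = 0.0286), a call lost in each of the 6 fits without 1 array (adjusted p = 0.0586 to 0.122), while that of H2-Q4 held without WT replicate 1 or WT replicate 2 and was lost in the other 4 (adjusted p = 0.0618 to 0.0831). The largest difference among the class I probe sets belonged to the one that lists H2-Q6 and H2-Q8 together. It read 9.539, 9.734 and 9.689 in KO replicates 1, 2 and 3, against 9.001, 9.001 and 9.018 in WT replicates 1, 2 and 3, higher by 0.65 (SE 0.06, adjusted p = 0.0195 over all probe sets). Its call held only without KO replicate 1 when arrays were left out singly (adjusted p = 0.0492, up to 0.152 in the others), with a difference of 0.61 to 0.71. The Q genes are close copies of one another, so this signal cannot be given to a single gene.

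Nlrc5 was covered by 19 probe sets of its own, more than any other member, each of them a fragment of the gene. The one with the highest mean read 10.70, 10.75 and 10.67 in KO replicates 1, 2 and 3, and 10.60, 10.76 and 10.65 in WT replicates 1, 2 and 3. The groups overlapped and the difference was 0.03 (95% interval -0.09 to 0.15, adjusted p = 0.794, limma). Of the 19 sets, 16 lay above background. Over the 19 sets the difference was positive in 14 and negative in 5, from -0.11 to 0.29 with a median of 0.08. In 6 of the 19 all KO arrays lay above all WT arrays, beside 9.03% of all probe sets, and in none below, beside 12.3%. None was called in the fit over all probe sets, where the smallest adjusted p was 0.103. Unadjusted, 5 had p under 0.05, all higher in KO, beside 6.58% of all probe sets higher and 9.57% lower at that threshold. The 19 sets read one transcript and are not independent. The mean of the 19 sets was 7.92, 7.96 and 7.96 in KO, against 7.85, 7.87 and 7.86 in WT. The set with the highest mean thus showed a smaller difference than the average of the gene's fragments (0.03 and 0.08), and in the fit on that average the adjusted p was 0.191.

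**Figure D3:**
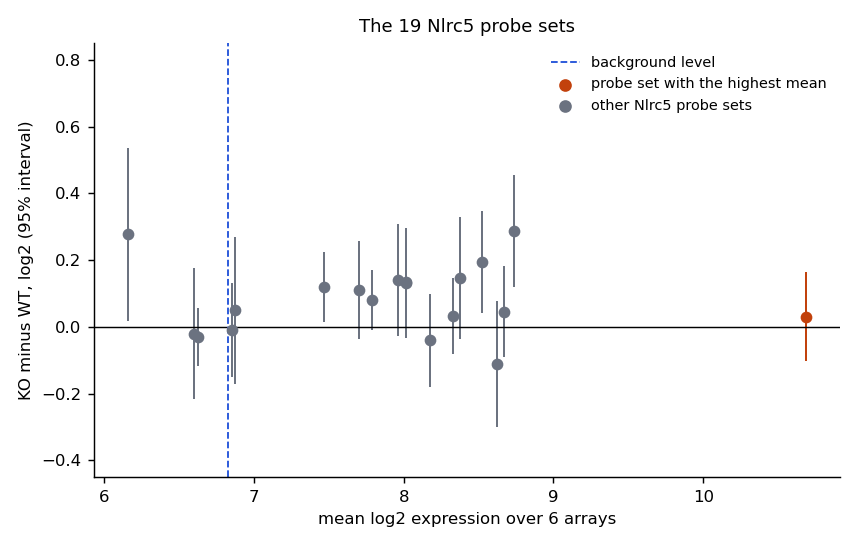
KO minus WT in log2 units with its 95% interval (vertical axis) against mean log2 expression over 6 arrays (horizontal axis) for the 19 Nlrc5 probe sets, with the background level of 6.83 dashed. The set that represents the gene (orange) lies at 0.03, and 14 of the 19 points lie above 0; the level axis shows only which sets pass the background, since probes bind unequally.

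Genes that act on class I transcription were measured through a list of 29, of which 27 had their own probe set. Of these, 4 rose, none fell and 23 did not pass, with a median of 0.06. Irf2, an interferon regulatory factor, rose by 0.24 (SE 0.03, adjusted p = 0.0108), with 10.26, 10.21 and 10.19 in KO, against 9.99, 9.97 and 9.98 in WT. Rela, an NF-kappaB subunit, rose by 0.24 (adjusted p = 0.0250). Rfxank, a subunit of the RFX complex that binds class I and class II promoters, rose by 0.16 (adjusted p = 0.0263). The cytokine-activated factor Stat3 rose by 0.14 (adjusted p = 0.0444). Leaving out single arrays ended the call of Irf2 only without WT replicate 3 (adjusted p = 0.0682). That of Rela held only without KO replicate 2 (up to 0.123 in the others), and those of Rfxank and Stat3 in none (up to 0.12 and 0.156). Irf1, which drives class I and immunoproteasome genes after interferon gamma, read 10.39 ± 0.01 in KO and 10.37 ± 0.04 in WT (SD, n = 3 each; adjusted p = 0.777).

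Genes of neighbouring pathways are given for scale. Of 7 interferon genes none was called. Only Ifnl2, named after its values were seen, lay above background, and the smallest p belonged to Ifna2 (-0.23, adjusted p = 0.121), below background. The median of 23 interferon-stimulated genes outside antigen presentation was 0.25, and 12 of them rose, 11 did not pass and none fell. In Oas2, Oasl2, Usp18 and Oas3, antiviral or interferon-feedback genes, the rises were 0.70, 0.48, 0.56 and 0.37, and among these only Oas3 lost its call in a fit without 1 array (adjusted p = 0.0528 without WT replicate 3). That list's count was 2 to 15 over the alternatives. The class II presentation list had 11 measured genes, 10 of which did not pass and 1 of which fell. The one that fell was Cd74, the invariant chain that guards the class II groove, with 9.47, 9.48 and 9.45 in KO, against 10.04, 9.94 and 10.01 in WT. It fell by 0.53 (SE 0.04, adjusted p = 0.00175), a call that held in all 14 alternatives. Ciita, the class II transactivator gene, lay below background and differed by -0.06 (adjusted p = 0.523).

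**Figure D4:**
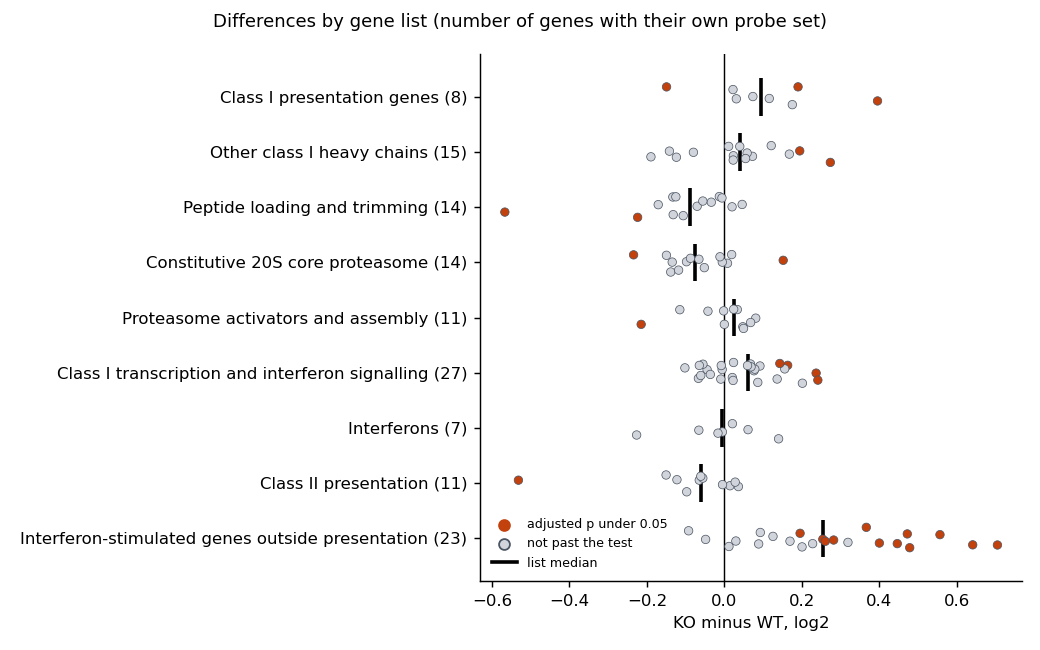
KO minus WT in log2 units (horizontal axis) for each gene with its own probe set, by gene list, with called genes in orange and the list median as a black bar; vertical scatter within a row has no meaning. The 23 interferon-stimulated genes have the rightmost median (0.25), and the peptide loading and trimming list holds Erap1 at -0.57.

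The profile of the 8 members, averaged after each was standardized over the 6 arrays, was most like that of Dock10, Smarcd2, Fhl3, Hipk3 and Tns1 among all other genes, with Pearson's r of 0.994 to 0.995 over 6 arrays. Of these, Dock10, Fhl3 and Tns1 rose (0.40, 0.28 and 0.25; adjusted p = 0.00496, 0.0101 and 0.00786), and Smarcd2 and Hipk3 differed by 0.09 and 0.13 without passing. Any gene with a KO minus WT difference well above its spread scores high on this measure, since the points share the genotype contrast.

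The calls among the members rest on few arrays. With 1 array left out, at most 2 members were called higher and none lower. Array weights added Tap2 and Psmb9, with WT replicate 3 weighted at 7.41 and the other 5 arrays between 0.524 and 1.19 (adjusted p = 0.0117 for Tap2 and 0.0166 for Psmb9). The sign of the difference was the same in all 14 alternatives for B2m, Tap1, Tap2, Tapbp, Psmb8 and Psmb9, and not for Psmb10 and Nlrc5.

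**Figure D5:**
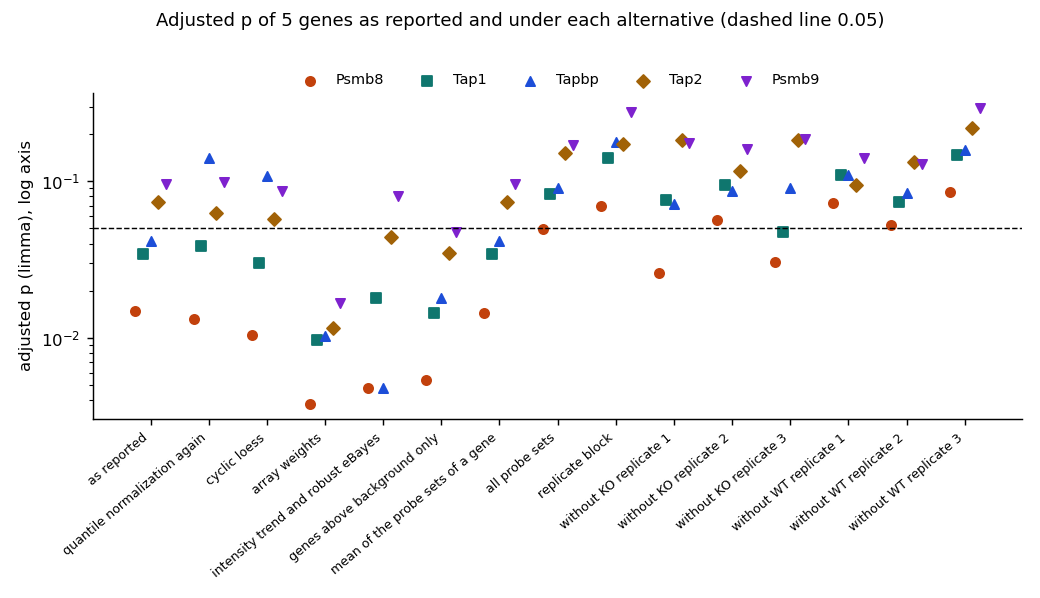
Adjusted p of the limma test (vertical log axis) for Psmb8, Tap1, Tapbp, Tap2 and Psmb9 as reported and under 14 alternatives (horizontal axis), with the 0.05 threshold dashed. Psmb8 lies under the line in 9 of the 14 alternatives, Tap1 in 7, Tapbp in 4, Tap2 in 3 and Psmb9 in 2.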

How the data were processed

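The deposited table holds log2 expression of 35556 probe sets on 6 arrays, made by the authors with RMA, which corrects background, scales arrays to a common distribution and summarises probes, per the submitters' processing notes. These also name Partek and Affymetrix Expression Console. Array medians were 7.19 to 7.23. Scaling sets the typical change near 0, so differences are relative to other genes. Arrays give no read depth, and their number limits the precision. The platform annotation gave 21789 probe sets 1 symbol, of which 21698 were matched to GRCm38.p6 identifiers, leaving 19938 genes. No coordinates of genes are given, since the labels and files name no build; windows carry RefSeq coordinates.

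KO was compared with WT by limma 3.58.1 (lmFit, eBayes, R 4.3.3), two-sided, without covariates, Benjamini-Hochberg adjusted over all genes, after a check on simulated data with 200 changed genes. Shared probe sets came from the same fit over all probe sets. Pairs of subunits used an exact permutation test. Motifs were counted with Python 3.11.15. The members and lists were chosen with earlier results of these data known. Genes named outside the members were the always-named partners and regulators, up to 4 called genes per list and direction by smallest p (or the smallest p where none was called), called markers and the highest marker of each list. Alternatives were quantile and cyclic loess scaling, array weights, a trended robust variance, a filter on dim genes, other probe set choices, a replicate block and leaving out each array. The labels do not tie equal replicate numbers to one animal or day.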

Additional observations from a re-analysis of the deposited data

How the results depend on the processing

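No result changed sign while called. Among the members, Tapbp was at an uncalled -0.10 after quantile normalization again and -0.11 after cyclic loess, which left 0 members called lower under either. Array weights called Tap2 (0.23) and Psmb9 (0.15), which made 4 members higher, and the filter on dim genes did the same (0.18 and 0.12, 4 members), with fewer genes tested. The trended robust variance called Tap2 (0.18). Over all probe sets, Tap1 (0.19) and Tapbp (-0.15) lost their calls, leaving 1 member higher and 0 lower. Under the replicate block Psmb8 (0.39), Tap1 (0.19) and Tapbp (-0.15) were not called (adjusted p = 0.0699, 0.142 and 0.178), with 0 members in either direction.

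Counts over all genes moved to 1604 higher and 1814 lower with array weights, 1305 lower with the trended variance, 1227 lower with the dim filter, 393 and 477 over all probe sets, and 30 and 22 under the replicate block. Over the pathway lists, outside the members, 19 genes were called higher and 5 lower. These became 14 lower with array weights, 8 lower with the trended variance and with the dim filter, 10 higher and 2 lower over all probe sets, and 2 and 1 under the replicate block. Samples of equal number deviated from their group means with r of -0.30, -0.26 and -0.02 across genes. Of the 3 KO arrays, 0 matched best with the WT array of their own number. Deviations from a mean of 3 arrays are tied to each other, so these values cannot decide whether equal numbers share an animal or day.

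Without 1 array, called genes numbered 109 to 434 higher and 80 to 524 lower, members 0 to 2 higher and 0 lower, and pathway genes 4 to 12 higher and 2 to 5 lower. The lowest counts over all genes came without WT replicate 3. Differences then ranged from 0.33 to 0.45 for Psmb8, 0.16 to 0.22 for Tap1 and -0.16 to -0.13 for Tapbp. The 3 subunit pairs kept their direction under both scalings and in each fit without 1 array. The causes of these changes were not tested.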

Other observations

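Several interferon-pathway genes could be read only in probe sets shared by close copies, and these, picked after their values were seen, did not all lie on one side. The set listing Irgm2 and Igtp, both interferon-inducible GTPases, read 7.53, 7.47 and 7.50 in KO replicates 1, 2 and 3, against 7.24 in each WT replicate, higher by 0.26 (adjusted p = 0.0304, limma over all probe sets). The set listing Isg15, a ubiquitin-like modifier, with Gm9706 differed by 0.19 (adjusted p = 0.166). The set listing Gbp2 and Gbp2b, guanylate-binding proteins induced by interferon gamma, lay the other way, with 10.56, 10.66 and 10.65 in KO, against 10.83, 10.82 and 10.81 in WT, a difference of -0.20 that did not pass (adjusted p = 0.0728). In the Irgm2 and Igtp set and in the Isg15 set, all KO arrays lay above all WT arrays, beside 9.03% of all probe sets. In the Gbp2 set all KO arrays lay below, beside 12.3%. The 3 WT values of the Irgm2 and Igtp set are exactly equal, so their spread is no measure of precision. No fits without 1 array were read for these 3 sets.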
